A study of Mus musculus with 8 samples.

Results

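Expression of 10 genes of the Bcl2 family was followed in P14 CD8 T cells under 4 culture conditions. The genes were taken by symbol from the deposited table of normalized counts, and 10 of its 24303 entries were members: the survival genes *Bcl2*, *Bcl2l1*, *Mcl1* and *Bcl2a1b*, the pore-forming death genes *Bax* and *Bak1*, and the BH3-only genes *Bcl2l11*, *Bid*, *Bbc3* and *Pmaip1*. P14 cells are mouse CD8 T cells (C57BL/6, from spleen) that carry a transgenic T cell receptor for GP33, a peptide of LCMV. All cells had been activated with plate-bound antibodies to CD3 and CD28 for 2 days, and were then pooled and kept in medium with IL-2 and IL-15. Effector cells are antigen-experienced cells sorted on day 7. The labels do not give their last stimulation, and the paper names day-7 cells Effector 7d-stim in a flow cytometry figure. Acute-2d cells received no peptide after day 2, Acute-7d cells were given GP33 up to day 7 and none later, and T_Dysf cells (labelled Dysfunctional) were given GP33 up to day 19 together with TGF-β1 from day 7. These 3 groups were collected on day 19. Each condition had 2 libraries, 8 in all. The labels do not tie a library to an animal or a culture, while the study calls the libraries of a condition biological replicates. The p-values rest on the spread between these libraries within a condition, pooled over the 4 conditions and drawn toward that of other genes. T_Dysf differs from Acute-7d in peptide and in TGF-β1, and those cannot be told apart here. Time in culture and treatment are likewise not separated between Effector and the groups of day 19. In sorted bulk cells, a smaller share of cells with an RNA and less of it per cell cannot be told apart either.

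Bcl2 family proteins decide whether the outer membrane of mitochondria is breached, the step that releases cytochrome c and starts the caspase cascade. BAX and BAK form the pore. The survival proteins BCL2, BCL-XL, MCL1 and A1 bind and hold pore formers and BH3-only proteins, while BH3-only proteins such as BIM, BID, PUMA and NOXA are the sensors that neutralize survival proteins or trigger the pore. In T cells, IL-7 and IL-15 are known to sustain BCL2, antigen receptor signals to raise BCL-XL and A1, and BIM to drive the contraction of an activated population. The table measures RNA only, and several of these proteins, MCL1 above all, are known to be controlled after transcription.

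The depth of the libraries, taken as the total of normalized counts over the worth of 1 read, lay between 19382147 and 24856195 reads on genes. The lowest member value, 240.2 normalized counts of *Bid* in T_Dysf replicate 1, stood for about 278 reads and a counting error of 5.99%, so counting limited none of the members and the floor of 3 reads (2.59 to 3.35 normalized counts) was never near. The summed normalized counts of 6 CD8 T cell markers ran from 74516 to 89536 in the Effector and Acute libraries and from 184834 to 186035 in T_Dysf. *Cd4* stayed between 1.01 and 13.04, and 3 B cell markers summed to 19.0 to 38.1. The summed level of 2 NK cell markers was 245 to 1489, highest in Acute-7d, and that of 3 myeloid markers was 196 to 463. *Jchain*, a plasma cell marker, read 236 and 275 in T_Dysf and at most 7.37 elsewhere. The part of these RNAs in the results below was not tested. Acute-7d replicate 1 and the pair of Effector libraries have names with a prefix, RESUB, that is not explained, and these 3 libraries alone had Y-linked RNA (*Ddx3y*, 1334 to 2161, against at most 2.59 in the other 5) and low *Xist* (53.5 to 115, against 21871 to 30427). These RNAs mark the 3 as male and the other 5 as female, and the paper used mice of both sexes. The prefix and sex thus coincide. Effector cannot be told apart from the prefix and sex in a comparison with Acute-2d or T_Dysf alone. Only the Acute-7d pair, with and without the prefix, separates Effector from them. T_Dysf against Acute-7d is touched in part, because Acute-7d replicate 1 is male with the prefix and both T_Dysf libraries are female without it. The same holds for Acute-7d against Acute-2d. The Acute-7d pair, with Y-linked RNA in replicate 1 alone, cannot have come from 1 animal.

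Conditions were compared with limma's moderated test on log2(normalized count + 1), in 1 fit of all 24303 genes and 8 libraries, with Benjamini-Hochberg adjustment over all genes. A log2 fold change (LFC) of 1 is a doubling, errors of LFCs are standard errors (SE), and intervals are 95% confidence intervals. A gene is said to have risen or fallen if its adjusted p was under 0.05, and is called a DEG if its fold change was also at least 2. An exact permutation test between 2 conditions of 2 libraries could not reach 0.05.

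The members that passed in some comparison fell into 4 patterns of level across the conditions. *Bcl2* was high in the rested Acute cells and low in Effector and T_Dysf cells. *Bak1* was the reverse, and so by its means was *Bcl2a1b*, whose T_Dysf level did not pass against either Acute condition. *Mcl1* was low in Effector cells alone, and *Bcl2l1* and *Bid* were high in Effector cells alone. *Bax*, *Bcl2l11*, *Bbc3* and *Pmaip1* did not pass the test in any comparison and were not placed in a pattern. Of the 60 pairs of member and comparison, 19 passed at an adjusted p under 0.05. Of those, 13 were changes of less than 2-fold. With RESUB as a term in the fit 3 of the 19 still passed: *Bcl2* and *Bak1* in T_Dysf against Acute-2d, whose 4 libraries all lack the prefix, and *Bak1* in Acute-7d against Effector. No passing change turned its direction in any alternative.

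**Figure D1:**
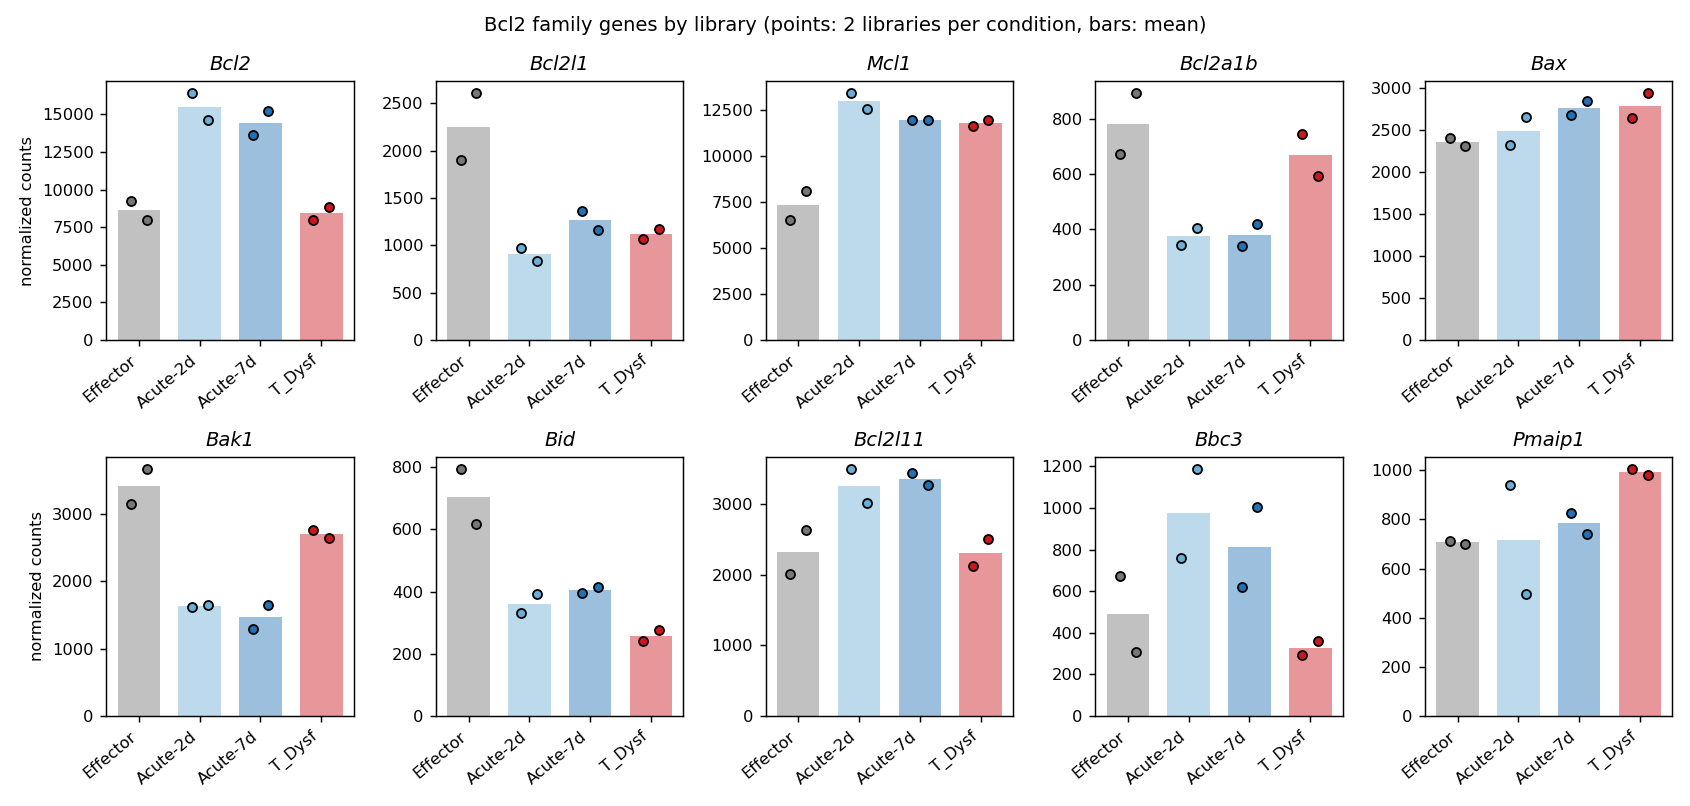
Normalized counts (y axis, linear from 0, one scale per gene) of the 10 Bcl2 family genes in the 4 conditions. Points are the 2 libraries and bars their mean; *Bcl2* is at 13594 to 16382 in the Acute libraries and at 7991 to 9259 in the Effector and T_Dysf libraries, and *Bax* stays between 2305 and 2934 throughout.

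*Bcl2*, the founding survival gene (GRCm38 chromosome 1, 106538178 to 106714274, minus strand), had 9259 and 8001 normalized counts in the Effector libraries, 16382 and 14631 in Acute-2d, 13594 and 15238 in Acute-7d, and 7991 and 8830 in T_Dysf. The 4 Acute libraries lay above the other 4 with no overlap, and the Effector and T_Dysf libraries overlapped. *Bcl2* rose from Effector to Acute-2d (LFC 0.85 ± 0.12, adjusted p = 0.0194) and to Acute-7d (0.74 ± 0.12, adjusted p = 0.0262). It fell in T_Dysf against Acute-2d (LFC -0.88 ± 0.12, adjusted p = 0.0167) and Acute-7d (-0.78 ± 0.12, adjusted p = 0.0282). T_Dysf and Effector cells did not differ beyond the pooled spread (LFC -0.04, interval -0.35 to 0.28, adjusted p = 0.942), and neither did Acute-7d and Acute-2d (-0.11, interval -0.42 to 0.21, adjusted p = 0.963). *Bcl2* was below a 2-fold change in all 6 comparisons and so was no DEG. With 1 library left out at a time, the fall against Acute-7d passed without either Effector library and was lost without any of the other 6 (adjusted p 0.0558 to 0.144, LFC -0.86 to -0.69). The fall against Acute-2d was lost without Acute-2d replicate 1, Acute-2d replicate 2 or T_Dysf replicate 1 (0.0526 to 0.1002, LFC -0.96 to -0.80). The rise from Effector to Acute-2d was lost without Effector replicate 2, either Acute-2d library or either T_Dysf library (0.0506 to 0.0869), and the rise to Acute-7d held only without Effector replicate 1 (0.0501 to 0.0990 without any other).

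*Bak1*, which encodes the pore former BAK (chromosome 17, 27019810 to 27029009, minus strand), ran the opposite way. It had 3157 and 3673 normalized counts in Effector, 1615 and 1654 in Acute-2d, 1294 and 1654 in Acute-7d, and 2759 and 2650 in T_Dysf. The conditions were ordered Effector, T_Dysf, Acute-2d, Acute-7d, and only the last pair overlapped. *Bak1* was a DEG, lower in Acute-7d than in Effector (LFC -1.22 ± 0.14, adjusted p = 0.0150) and lower in Acute-2d (-1.06 ± 0.14, adjusted p = 0.0161). It rose in T_Dysf against Acute-7d (LFC 0.89 ± 0.14, adjusted p = 0.0277) and against Acute-2d (0.73 ± 0.14, adjusted p = 0.0367). The lower level in T_Dysf than in Effector did not pass (-0.33, interval -0.69 to 0.03, adjusted p = 0.181). The fall from Effector to Acute-7d was the 1 member change that passed with any single library left out (adjusted p 0.0226 to 0.0489). The fall to Acute-2d was lost without Effector replicate 2, Acute-2d replicate 1 or Acute-2d replicate 2 (0.0571 to 0.0780, LFC -1.17 to -0.95). The rise against Acute-7d passed without either Effector library or Acute-7d replicate 2, where it reached an LFC of 1.06, and was lost without any of the other 5 (0.0644 to 0.138). The rise against Acute-2d was lost without either Acute-2d or either T_Dysf library (0.105 to 0.163, LFC 0.70 to 0.76).

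*Bcl2a1b* belongs to the mouse *Bcl2a1* copies, which encode nearly identical forms of the survival protein A1, a known target of NF-kB. The copies matter for the measurement, because reads from a shared stretch cannot be assigned. In the annotated transcripts (GENCODE vM21), *Bcl2a1b* and *Bcl2a1d* have 516 coding bases each and differ at 6 of them (98.8% identity), and *Bcl2a1b* and *Bcl2a1a* differ at 11 (97.9%). Of the 100-base windows of the *Bcl2a1b* transcript, 31.1% occurred unchanged in *Bcl2a1d* and 16.4% in *Bcl2a1a*. The first 90 coding bases, shown here because they hold 6 positions that tell the copies apart, read as follows, with the bases that are not the same in all 3 copies in capitals.
Bcl2a1b: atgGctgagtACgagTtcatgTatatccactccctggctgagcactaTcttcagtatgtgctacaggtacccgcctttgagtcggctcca
Bcl2a1d: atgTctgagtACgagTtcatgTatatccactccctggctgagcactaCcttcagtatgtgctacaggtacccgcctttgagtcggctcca
Bcl2a1a: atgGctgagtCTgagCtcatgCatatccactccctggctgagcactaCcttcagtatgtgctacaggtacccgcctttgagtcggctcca

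*Bcl2a1b* (chromosome 9, 89199209 to 89207827, plus strand) had 672 and 892 normalized counts in Effector, 344 and 405 in Acute-2d, 339 and 421 in Acute-7d, and 745 and 593 in T_Dysf. Effector and T_Dysf overlapped each other and lay above both Acute conditions. It was a DEG, lower in Acute-7d (LFC -1.03 ± 0.21, adjusted p = 0.0401) and Acute-2d (-1.05 ± 0.21, adjusted p = 0.0376) than in Effector. Each of those calls held without Effector replicate 1 and was lost without any of the other 7 libraries (adjusted p 0.0717 to 0.167 for Acute-7d, 0.0629 to 0.150 for Acute-2d). T_Dysf had a higher mean than Acute-7d (LFC 0.81 ± 0.21, adjusted p = 0.0894) and Acute-2d (0.83 ± 0.21, adjusted p = 0.0760). Both differences passed when genes with a mean under 50 were left out of the fit as well as of the adjustment (adjusted p 0.0309 and 0.0250).

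*Bcl2a1d* (chromosome 9, 88723285 to 88731914, minus strand) had 504 and 541 normalized counts in Effector, 103 and 108 in Acute-2d, 61.9 and 122 in Acute-7d, and 269 and 252 in T_Dysf. Its fall from Effector to Acute-7d (LFC -2.57 ± 0.32, adjusted p = 0.0170) was lost without Effector replicate 2, T_Dysf replicate 1 or T_Dysf replicate 2 (adjusted p up to 0.0633). *Bcl2a1a* and *Bcl2a1c* read at most 5.98 in any library. The sum of the 4 entries does not depend on how reads were split among them, and was 1187 and 1435 in Effector, 449 and 514 in Acute-2d, 405 and 546 in Acute-7d, and 1016 and 849 in T_Dysf. The sum rose in T_Dysf against Acute-7d (LFC 0.98 ± 0.20, adjusted p = 0.0484) and Acute-2d (0.95 ± 0.20, adjusted p = 0.0446), and was lower in Acute-7d than in Effector (-1.47 ± 0.20, adjusted p = 0.0189). Both rises of the sum were lost without any 1 of the 8 libraries (0.0645 to 0.200 for Acute-7d, 0.0501 to 0.188 for Acute-2d), and its fall was lost without Effector replicate 2 or Acute-7d replicate 1 (0.0666 to 0.0763). *Bcl2a1b* made up 56.6% and 62.1% of the sum in Effector and 69.9% to 83.6% in the other 6 libraries.

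**Figure D2:**
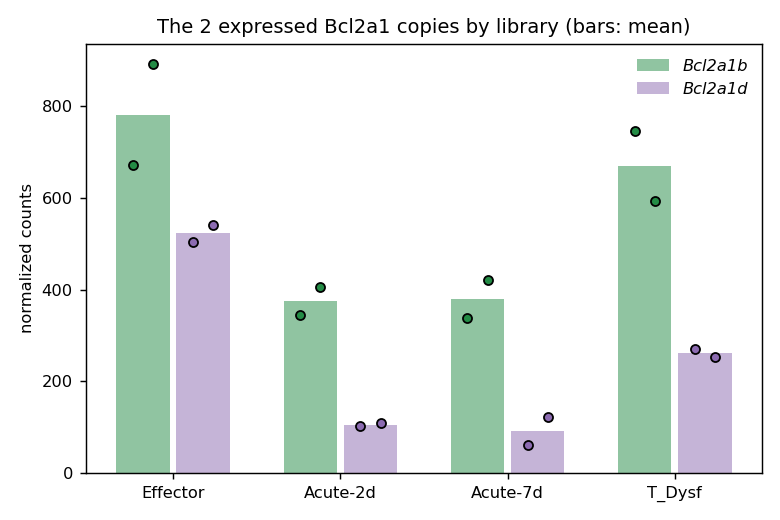
Normalized counts (y axis, linear from 0) of *Bcl2a1b* and *Bcl2a1d* in the 4 conditions; points are the 2 libraries and bars their mean. Both copies have their highest mean in Effector, at 672 and 892 for *Bcl2a1b* and 504 and 541 for *Bcl2a1d*, and are lower in the 4 Acute libraries. For *Bcl2a1b* the T_Dysf libraries, at 745 and 593, overlap Effector.

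*Mcl1*, a short-lived survival protein that T cells need at all stages (chromosome 3, 95658788 to 95663176, plus strand), had 6526 and 8103 normalized counts in Effector, 13400 and 12569 in Acute-2d, 11968 and 11937 in Acute-7d, and 11638 and 11966 in T_Dysf. Both Effector libraries lay below the other 6. *Mcl1* rose from Effector to Acute-2d (LFC 0.84 ± 0.12, adjusted p = 0.0181), Acute-7d (0.72 ± 0.12, adjusted p = 0.0260) and T_Dysf (0.70 ± 0.12, adjusted p = 0.0232). T_Dysf and Acute-7d did not differ beyond the pooled spread (LFC -0.02, interval -0.32 to 0.28, adjusted p = 1.0), nor did T_Dysf and Acute-2d (-0.14, interval -0.44 to 0.17, adjusted p = 0.516). The rise to T_Dysf passed without either Effector library and was lost without any of the other 6 (0.0517 to 0.110, LFC 0.54 to 0.85 over all 8), and so was the rise to Acute-7d (0.0546 to 0.117). The rise to Acute-2d was lost without either Acute-2d or either T_Dysf library (0.0521 to 0.0862).

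*Bcl2l1*, which encodes BCL-XL (chromosome 2, 152780668 to 152831728, minus strand), had 1901 and 2604 normalized counts in Effector, 975 and 836 in Acute-2d, 1367 and 1163 in Acute-7d, and 1072 and 1177 in T_Dysf. Effector lay above all other libraries, and T_Dysf overlapped Acute-7d. *Bcl2l1* was a DEG in Acute-2d against Effector (LFC -1.30 ± 0.19, adjusted p = 0.0188), and fell in T_Dysf (-0.99 ± 0.19, adjusted p = 0.0309) and Acute-7d (-0.82 ± 0.19, adjusted p = 0.0497) against Effector. T_Dysf did not differ beyond the spread from Acute-7d (-0.17, interval -0.65 to 0.31, adjusted p = 0.645) or Acute-2d (0.32, interval -0.17 to 0.80, adjusted p = 0.358). The falls in T_Dysf and Acute-7d held only without Effector replicate 1, and were lost without any of the other 7 libraries (0.0584 to 0.145 and 0.0837 to 0.174). The fall in Acute-2d was lost without either Acute-2d or either T_Dysf library (0.0510 to 0.0746).

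*Bid* encodes the BH3-only protein that carries the death receptor signal to mitochondria once caspase-8 has cut it (chromosome 6, 120891930 to 120916853, minus strand). It had 794 and 617 normalized counts in Effector, 331 and 391 in Acute-2d, 396 and 415 in Acute-7d, and 240.2 and 277 in T_Dysf. The 4 conditions did not overlap, in the order Effector, Acute-7d, Acute-2d, T_Dysf. *Bid* was a DEG in T_Dysf against Effector (LFC -1.44 ± 0.16, adjusted p = 0.0101), the largest member change to pass, and this was lost only without T_Dysf replicate 1 (LFC -1.34, adjusted p = 0.0630). It also fell in Acute-2d (-0.96 ± 0.16, adjusted p = 0.0254) and Acute-7d (-0.79 ± 0.16, adjusted p = 0.0398). The fall in Acute-7d was lost without any 1 of the 8 libraries (0.0529 to 0.165), and the fall in Acute-2d held only without an Effector library (0.0562 to 0.107 without any other). T_Dysf against Acute-7d did not pass (-0.65 ± 0.16, adjusted p = 0.0789; 0.0415 among genes with a mean of at least 50), nor T_Dysf against Acute-2d (-0.48 ± 0.16, adjusted p = 0.137).

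*Bax*, the other pore former (chromosome 7, 45461697 to 45466898, minus strand), had 2408 and 2305 normalized counts in Effector, 2324 and 2651 in Acute-2d, 2673 and 2842 in Acute-7d, and 2641 and 2934 in T_Dysf. Neighbouring conditions overlapped except Acute-2d and Acute-7d. No comparison passed, and the SE of 0.09 was the smallest among the members. The interval for T_Dysf against Acute-7d was -0.22 to 0.25 around an LFC of 0.01, and for T_Dysf against Effector 0.0046 to 0.48 around 0.24 (adjusted p = 0.151).

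*Bcl2l11* encodes BIM, the BH3-only protein that acts against BCL2 in T cells (chromosome 2, 128126038 to 128162547, plus strand). It had 2011 and 2639 normalized counts in Effector, 3501 and 3018 in Acute-2d, 3444 and 3280 in Acute-7d, and 2122 and 2505 in T_Dysf. All 4 Acute libraries lay above the other 4, as for *Bcl2*, but the differences were smaller and did not pass. T_Dysf against Acute-7d had an LFC of -0.54 ± 0.17 (adjusted p = 0.124) and Acute-7d against Effector 0.54 ± 0.17 (adjusted p = 0.0992). Among genes with a mean of at least 50 these passed, at 0.0483 and 0.0352. T_Dysf and Effector had the same mean (LFC 0.00, interval -0.43 to 0.43). Across the 8 libraries the log2 levels of *Bcl2* and *Bcl2l11* had a Pearson r of 0.854, and those of *Bak1* and *Bcl2a1b* 0.971. These are descriptions over libraries that share their conditions.

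*Bbc3* encodes PUMA, a target of p53 and FOXO3 (chromosome 7, 16308393 to 16318205, plus strand), and its replicates spread widely. It had 675 and 309 normalized counts in Effector, 761 and 1188 in Acute-2d, 618 and 1007 in Acute-7d, and 293 and 361 in T_Dysf. Both T_Dysf libraries lay below all 4 Acute libraries, while Effector overlapped with both T_Dysf and Acute-7d. T_Dysf against Acute-2d had the largest LFC of any member, -1.54 ± 0.48, and did not pass (interval -2.79 to -0.30, adjusted p = 0.118); among genes with a mean of at least 50 it did (0.0292). T_Dysf against Acute-7d did not pass (-1.27 ± 0.48, adjusted p = 0.184).

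*Pmaip1* encodes NOXA, a BH3-only protein directed mainly at MCL1, and lies on chromosome 18. It had 713 and 700.2 normalized counts in Effector, 940 and 496 in Acute-2d, 827 and 742 in Acute-7d, and 1005 and 981 in T_Dysf. Both T_Dysf libraries lay above the other 6, and the Acute-2d pair, which differed by 0.92 on the log2 scale, enclosed the Effector and Acute-7d pairs. No comparison passed: T_Dysf against Effector had an LFC of 0.49 (interval -0.29 to 1.27, adjusted p = 0.345) and against Acute-7d 0.34 (interval -0.44 to 1.12, adjusted p = 0.540). With either library of that pair left out, T_Dysf against Effector passed (LFC 0.49, adjusted p = 0.0324 without Acute-2d replicate 1 and 0.0320 without replicate 2). Without Acute-2d replicate 1 T_Dysf was also higher than Acute-2d (LFC 1.002, adjusted p = 0.02002).

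Counted over the 10 members, T_Dysf against Acute-7d had 0 DEGs, against a background of 5.57% of all 24303 genes, and 2 members at an adjusted p under 0.05 alone (*Bak1* higher, *Bcl2* lower; background 9.21%). By limma's unadjusted p under 0.05 the count was 6 (background 26.1%), and with a 2-fold minimum 1 (13.1%), near the background. T_Dysf against Acute-2d had 0 DEGs (7.35%) and the same pair of members passing (11.9%), with 6 at an unadjusted p under 0.05 (27.7%). T_Dysf against Effector had 1 DEG (*Bid*; 9.22%) and 3 members passing (15.6%), with 4 at an unadjusted p under 0.05 (31.7%). Acute-7d against Effector had 2 DEGs (*Bak1* and *Bcl2a1b*; 8.06%) and 6 passing (14.9%), 2 higher and 4 lower, with 7 at an unadjusted p under 0.05 (30.4%). Acute-2d against Effector had 3 DEGs (*Bak1*, *Bcl2a1b* and *Bcl2l1*; 8.78%) and 6 passing (15.7%), with 7 at an unadjusted p under 0.05 (31.2%). Acute-7d against Acute-2d had 0 members under both rules (0.169% under each), with 1 at an unadjusted p under 0.05, *Bcl2l1*, near the background of 7.31%. The share of members past the DEG rule was thus near or below the background in T_Dysf comparisons. The median LFC of the members was -0.09 in T_Dysf against Acute-7d and 0.19 in Acute-7d against Effector, where the median of all genes was 0 in both. Every member had a mean over 50, and in these comparisons the background was higher among the 12028 genes with a mean of at least 50. With the adjustment kept over all genes, 1835 of them passed in T_Dysf against Acute-7d and 3160 in Acute-7d against Effector. By an unadjusted p under 0.05 the numbers were 4741 and 5802. Comparisons that share a condition are not independent of each other.

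**Figure D3:**
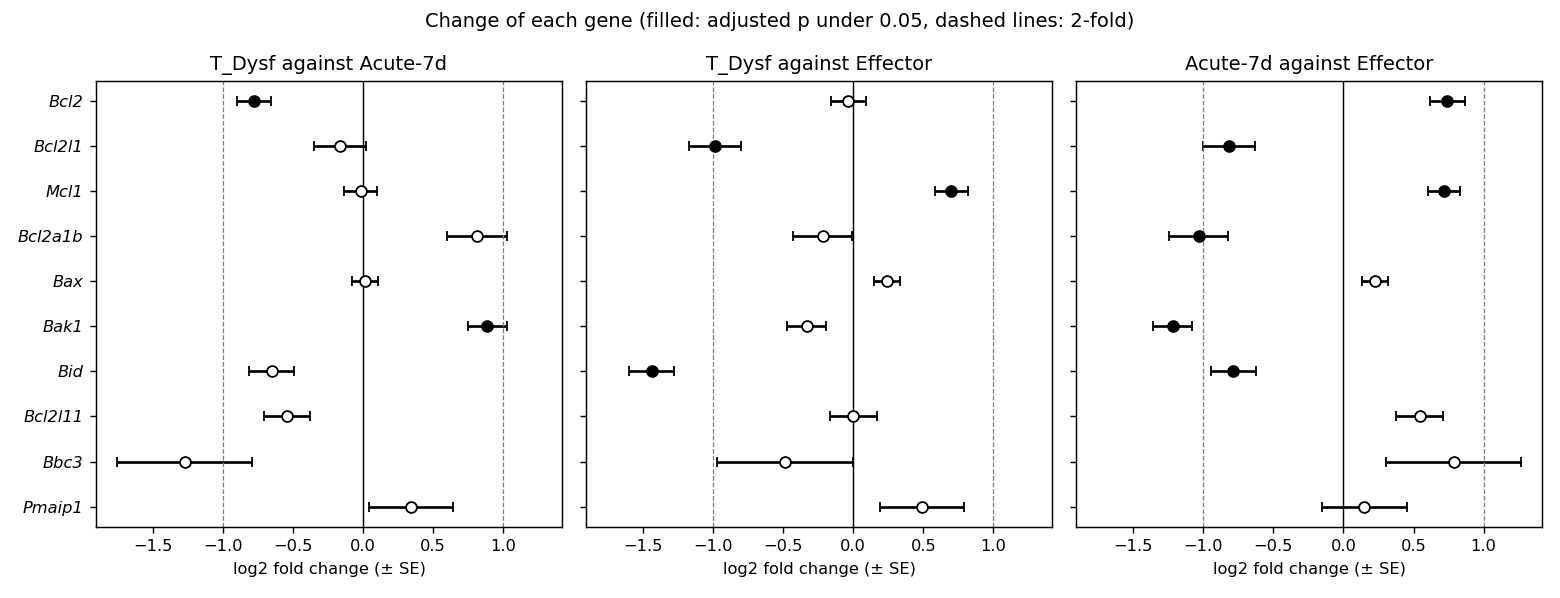
Log2 fold change with its standard error (x axis) of each member (y axis) in T_Dysf against Acute-7d, T_Dysf against Effector and Acute-7d against Effector; filled points have an adjusted p under 0.05 and dashed lines mark a 2-fold change. *Bak1* and *Bcl2* are filled in the first panel, *Bcl2l1*, *Mcl1* and *Bid* in the second, and 6 members in the third.

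Levels of different genes were compared as normalized counts per kb of annotated exon. The length was that of all GENCODE exons of a gene together, while the counts were made on RefSeq transcripts. Rankings, shares and ratios between genes depend on these lengths. Before the division *Bcl2* read above *Mcl1* in the Acute libraries and Effector replicate 1, and below it in the others. Per kb, *Mcl1* was the most abundant survival gene in every library. It made up 45.1% and 47.4% of the summed per-kb level of the 4 survival genes in Effector, and 58.5% to 63.7% in the other 6 libraries. *Bcl2* made up 23.9% and 17.5% in Effector, 25.8% to 28.0% in the Acute libraries, and 16.0% and 17.6% in T_Dysf. *Bcl2l1* made up 11.6% and 13.4% in Effector and 3.59% to 6.11% elsewhere, and *Bcl2a1b* 19.4% and 21.8% in Effector, 13.2% and 16.7% in T_Dysf, and 6.60% to 8.64% in the Acute libraries. These 4 survival genes summed to 4232 and 5006 per kb in Effector, 5466 and 5494 in T_Dysf, and 5752 to 6382 in the Acute libraries. The sum and shares leave out *Bcl2a1d*, at 584 and 627 per kb in Effector, 312 and 292 in T_Dysf and 71.7 to 141 in the Acute libraries. They also leave out *Bcl2l2*, which encodes the survival protein BCL-W, at 119 and 97.0 in Effector, 257 and 288 in T_Dysf and 131 to 177 in the Acute libraries. The T_Dysf shares thus lay in or next to the Acute range for *Mcl1* and *Bcl2l1*, next to the Effector range for *Bcl2*, and between both for *Bcl2a1b*.

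Among the pore formers, *Bak1* made up 32.3% and 36.7% of the per-kb sum in Effector, 24.7% and 27.5% in T_Dysf, and 15.0% to 20.2% in the Acute libraries. Among the BH3-only genes, *Bid* made up 28.2% and 25.8% in Effector and 10.6% to 13.7% elsewhere, while *Pmaip1* made up 38.8% and 34.3% in T_Dysf and 12.5% to 24.2% elsewhere. The 4 BH3-only members summed to 947 and 1048 per kb in T_Dysf, the lowest of the 4 conditions, and to 1091 to 1492 in the other libraries. That sum and these shares leave out 3 other BH3-only genes. *Bmf* was at 125 and 144 per kb in T_Dysf and 11.6 to 84.7 in the other libraries. *Bad* was at 200 and 229 in T_Dysf and 124 to 197 elsewhere, and *Bik* at 45.6 and 38.0 and 21.1 to 50.7. The order of the conditions is thus given for the 4 members alone.

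Ratios of a survival gene to a death gene it is known to hold or be neutralized by were taken within each library, which frees them of the scaling between libraries. They are ratios of RNA per kb, and no test was run on them. The ratio of *Bcl2* to *Bcl2l11* was 3.47 and 2.28 in Effector, 3.52 and 3.65 in Acute-2d, 2.97 and 3.50 in Acute-7d, and 2.84 and 2.65 in T_Dysf, a range of 1.60-fold over the 8 libraries. The ratio spanned less between the libraries than *Bcl2* itself. The ratio of *Bcl2* to *Bax* was 0.287 and 0.285 in T_Dysf, lower than 0.364 and 0.329 in Effector, 0.481 and 0.508 in Acute-7d, and 0.667 and 0.522 in Acute-2d. The ratio of *Mcl1* to *Bak1* separated the conditions most widely, by 4.47-fold from lowest to highest. It was 1.44 and 1.54 in Effector, 2.95 and 3.15 in T_Dysf, 5.79 and 5.31 in Acute-2d, and 6.46 and 5.04 in Acute-7d. T_Dysf lay between Effector and both Acute conditions without overlap. The ratio of *Mcl1* to *Pmaip1* was 7.32 and 9.25 in Effector, 9.25 and 9.75 in T_Dysf, 11.6 and 12.9 in Acute-7d, and 11.4 and 20.3 in Acute-2d.

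**Figure D4:**
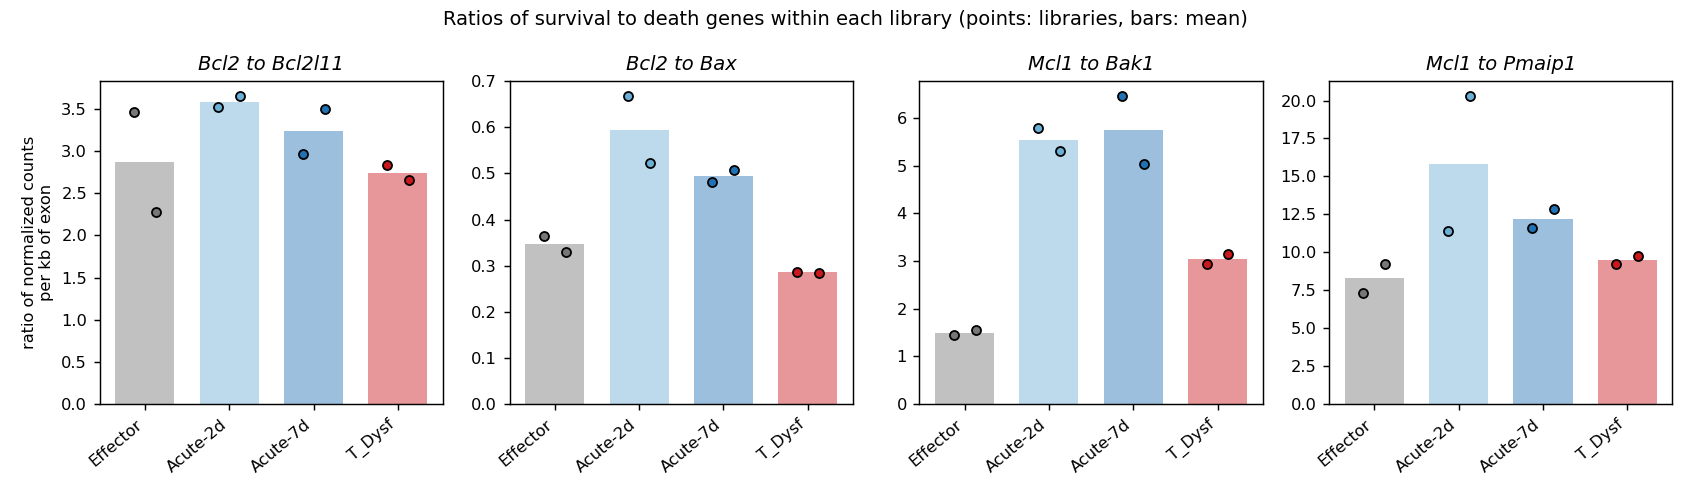
Ratios of normalized counts per kb of exon (y axis, linear from 0, one scale per ratio) of a survival gene to a death gene within each library; points are libraries and bars the mean of 2. *Mcl1* to *Bak1* is 1.44 and 1.54 in Effector, 2.95 and 3.15 in T_Dysf and 5.04 to 6.46 in the Acute libraries, while *Bcl2* to *Bcl2l11* stays between 2.28 and 3.65.

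Promoters of the members were searched for motifs of 3 factor families known to act on these genes, in RefSeq windows of 250 bases before to 50 after each start (GRCm38.p6), which were at hand for 9 of the 10 members. Both strands were searched for GGGNNTTCC (NF-kB), TTCNNNGAA (STAT) and TGTTTAC (FOXO), held by 5.82%, 8.30% and 3.65% of all 32851 windows. A NF-kB motif occurred upstream of 1 start each of *Bcl2l1* and *Bbc3*, and a FOXO motif upstream of 1 start each of *Bcl2l11* and *Bbc3*. No STAT motif occurred, and none of the 3 in the windows of *Bcl2*, *Mcl1*, *Bcl2a1b*, *Bax*, *Bak1* or *Bid*. All 4 matches are shown, in windows of 100 bases, because they are the only ones among the members. *Bbc3* holds both motifs, near different starts. A match describes letters and is not evidence of binding. The motif is in capitals, on the strand of the gene.
Bcl2l1 at chr2:152830786-152830885, NF-kB 122 bases before the start: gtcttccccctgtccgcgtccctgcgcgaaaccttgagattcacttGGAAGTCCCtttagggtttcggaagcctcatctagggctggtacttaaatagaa
Bcl2l11 at chr2:128125788-128125887, FOXO 227 bases before the start: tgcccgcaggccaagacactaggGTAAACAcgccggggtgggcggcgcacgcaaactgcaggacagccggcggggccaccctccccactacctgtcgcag
Bbc3 at chr7:16309401-16309500, NF-kB 136 bases before the start: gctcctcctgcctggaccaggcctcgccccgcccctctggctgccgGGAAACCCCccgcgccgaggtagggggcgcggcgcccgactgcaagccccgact
Bbc3 at chr7:16310048-16310147, FOXO 167 bases before the start: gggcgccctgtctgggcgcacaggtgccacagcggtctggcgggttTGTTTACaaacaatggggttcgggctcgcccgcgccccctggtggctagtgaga

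Other genes of the family were measured at 13 of 16 listed symbols. In T_Dysf against Acute-7d, 1 of 13 passed, in the lower direction, near the background of 9.21% of all genes. *Bnip3*, a mitochondrial member tied to hypoxia and mitophagy, had 889 and 680 normalized counts in Effector, 3284 and 4000.3 in Acute-2d, 1683 and 1802 in Acute-7d, and 677 and 587 in T_Dysf. It was a DEG, lower in T_Dysf than in Acute-7d (LFC -1.46 ± 0.17, adjusted p = 0.0147) and higher in Acute-7d than in Effector (1.16 ± 0.17, adjusted p = 0.0221). The fall in T_Dysf was lost without either Acute-7d or either T_Dysf library (adjusted p up to 0.0755), and the rise in Acute-7d held without Effector replicate 1 or either Acute-2d library only (up to 0.0957). *Bcl2l2*, which encodes the survival protein BCL-W and was singled out after its values were seen, had 484 and 396 in Effector, 712 and 708 in Acute-2d, 534 and 723 in Acute-7d, and 1049 and 1174 in T_Dysf. It was the 1 listed gene of the family to pass in T_Dysf against Effector (LFC 1.34 ± 0.18, adjusted p = 0.0141; lost without Effector replicate 2 or either T_Dysf library, 0.0554 to 0.0705), while T_Dysf against Acute-7d did not pass (0.84 ± 0.18, adjusted p = 0.0569).

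Downstream of the pore, 14 genes of the apoptosome and the caspases were measured. In T_Dysf against Acute-7d 2 rose, 1 fell and 11 did not pass (background 9.21% of all genes passing), with a median LFC of 0.17. *Birc5* (survivin), also a mitotic gene, fell from 2587 and 3440 in Effector to 124 and 539 in Acute-7d (LFC -3.52 ± 0.70, adjusted p = 0.0375), a call that held only without an Acute-7d library (adjusted p up to 0.140, LFC -4.58 to -2.47). In Acute-7d against Effector, 1 of the 14 rose and 2 fell (background 14.9% of all genes passing).

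Of 12 genes of the death receptor pathway, 3 rose and 1 fell in T_Dysf against Acute-7d, and 8 did not pass (background 9.21% of all genes passing). *Fas*, the death receptor, had 119 and 176 normalized counts in Effector, 324 and 334 in Acute-2d, 114 and 108 in Acute-7d, and 25.0 and 14.2 in T_Dysf. Both T_Dysf libraries were far below the other 6, and *Fas* was a DEG against Acute-7d (LFC -2.49 ± 0.32, adjusted p = 0.0181; lost without either Acute-7d library, up to 0.0967). *Tnfsf10*, which encodes the death ligand TRAIL, went from 2100 and 1896 in Acute-7d to 6539 and 7324 in T_Dysf (LFC 1.79 ± 0.26, adjusted p = 0.0236; lost without either Acute-7d or either T_Dysf library, up to 0.111). *Tnfrsf1b*, a TNF receptor without a death domain, went from 2814 and 2414 to 5298 and 5560 (1.06 ± 0.11, adjusted p = 0.0120; no longer a DEG without Acute-7d replicate 2 or T_Dysf replicate 1, where the LFC reached 0.95 and the adjusted p 0.0704). In Acute-7d against Effector, none of the 12 rose and 2 fell, near the background of 14.9% of all genes passing. *Casp8*, which cuts BID, fell from 2812 and 3565 in Effector to 1426 and 1661 in Acute-7d (LFC -1.04 ± 0.14, adjusted p = 0.0184), and held only without Effector replicate 1 or an Acute-2d library (up to 0.0868). *Ripk3*, the necroptosis kinase, fell from 1448 and 1626 to 626 and 749 (-1.16 ± 0.11, adjusted p = 0.0118), and passed with any 1 library left out (up to 0.0415).

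Of 16 cytokine and stress inputs, 1 rose, 4 fell and 11 did not pass in T_Dysf against Acute-7d (background 9.21% of all genes passing). *Pim1*, a kinase induced by cytokines, had 21633 and 14400 normalized counts in Acute-7d and 6361 and 6587 in T_Dysf (LFC -1.45 ± 0.20, adjusted p = 0.0202; lost without either Acute-2d or either T_Dysf library, up to 0.115). In Acute-7d against Effector 3 rose and 1 fell (background 14.9% of all genes passing). *Il7r*, the IL-7 receptor chain, went from 2636 and 2314 in Effector to 5993 and 6575 in Acute-7d (LFC 1.35 ± 0.10, adjusted p = 0.00822), and had 3374 and 3560 in T_Dysf, lower than in Acute-7d (-0.86 ± 0.10, adjusted p = 0.0139; lost without either Acute-7d library or T_Dysf replicate 1, 0.0585 to 0.0896). *Foxo1*, a transcription factor of resting T cells, went from 1776 and 1692 to 3770 and 3918 (1.15 ± 0.05, adjusted p = 0.00270) and had 2299 and 2344 in T_Dysf (-0.73 ± 0.05, adjusted p = 0.00479), a fall that passed with any 1 library left out (up to 0.0343). Both rises passed with any 1 library left out (up to 0.0330 for *Il7r* and 0.0153 for *Foxo1*). *Foxo3* rose from 1661 and 1299 to 3912 and 3578 (1.35 ± 0.15, adjusted p = 0.0152; lost without either Acute-7d library, up to 0.0797) and stayed at 3388 and 3959 in T_Dysf. *Il2ra*, the inducible IL-2 receptor chain, fell from 6400.2 and 11200 in Effector to 2637 and 2728 in Acute-7d (-1.66 ± 0.26, adjusted p = 0.0246), and held only without an Effector library (up to 0.113). *Trp53*, which encodes p53, was among the 4 that fell in T_Dysf, from 3270 and 3277 in Acute-7d to 2054 and 2075 (-0.66 ± 0.12, adjusted p = 0.0357). That call held only without an Effector library (0.0776 to 0.159 without any other), and the gene was singled out after its values were seen. *Bbc3* (LFC -1.27, adjusted p = 0.184) and *Bax* (LFC 0.01), members that are known p53 targets, did not pass in that comparison. They are only a part of the known targets. Targets of p53 were not examined as a set, and a part of p53 in these changes was not tested.

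The genes whose log2 levels most resembled a member over the 8 libraries were sought among 7149 other genes with a mean of at least 500. For *Bcl2* they were *AW549877* (r = 0.989), *Gm38244* (0.984) and *Metap1d* (0.983), and the mean of *Metap1d* was 910 in Acute-2d and 860 in Acute-7d against 367 in T_Dysf and 385 in Effector. For *Bcl2l11* they were *Fam168b* (0.987), *Irf2bp2* (0.974) and *Kdm5a* (0.970), and for *Mcl1* *Sesn3* (0.988), *Gtf2i* (0.988) and *Plpbp* (0.988). These are descriptions over 8 libraries that share 4 conditions.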

How the data were processed

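Alignment by the authors used STAR and mm10, quantification used RefSeq transcripts in Partek Flow, and libraries were scaled by DESeq2 median ratios (versions not given in the sources used here). The deposited values are a signal: estimated gene counts divided by the size factor of each library. The most frequent low value was taken as 1 read. Under 1000 reads, 52.3% to 75.6% of values were whole multiples of it (within 0.02), so whole reads were not recovered and no count model was fitted.

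limma (3.58.1, R 4.3.3; lmFit, eBayes with trend, two-sided) was run on log2(value + 1). The fit was tested on simulated data with 200 changes planted in T_Dysf. Each was an LFC of 2, up or down, in a gene with a mean of at least 50. In T_Dysf against Acute-7d the fit recovered 117 of them and called 2 unchanged genes. Recovery of smaller changes, such as those of the members, was not measured. A change that did not pass is thus not shown to be absent. Positions, exon lengths and transcripts came from GENCODE vM21, promoters from RefSeq. Figures were drawn with matplotlib 3.10.9. The members and gene lists were chosen with earlier results of these data known. Members were described in full, and listed genes were named if they were DEGs in T_Dysf against Acute-7d or Acute-7d against Effector, at most 6 per list. The values of 1 such gene are not reported here. Alternatives were another pseudocount, filter, scaling or threshold, a fit of the 2 conditions compared, a replicate block, a RESUB term, each library left out, the sum of *Bcl2a1* entries and, added after seeing the data, protein-coding genes only and that sum with each library left out. Replicate numbers were not taken as pairs: replicate differences correlated by -0.199 to 0.197 over the 6 pairs of conditions (across 12028 genes, which are not independent replicates). Replicates differed beyond sampling noise, with squared differences of 26.7 to 63.5 times the sampling variance on average.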

Additional observations from a re-analysis of the deposited data

How the results depend on the processing

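With 2 libraries per condition the fit had 4 residual degrees of freedom, 3 without a library, and the adjusted p of the 19 changes that passed lay between 0.01 and 0.05. Of those 19, 1 passed with every library left out in turn, 16 were lost with the RESUB term, 18 with only the 2 conditions compared, 2 with equal 75th percentiles, 1 with equal totals and 1 with a pseudocount of 0.1, and none changed its sign. The cause of these losses was not tested. Leaving out genes with a mean under 50 lost none and added 7. Depth limited none of the members.

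The count of member DEGs was 0 in T_Dysf against Acute-7d, and became 1 with an unadjusted p, 2 with no minimum fold change, and 0 to 1 with a library left out (1 without Acute-7d replicate 2). In T_Dysf against Acute-2d it was 0, and became 1 with either filter on low genes (mean or maximum of 50), 1 with an unadjusted p, 2 with no minimum fold change and 0 to 1 with a library left out (1 without Acute-2d replicate 1). In T_Dysf against Effector it was 1, and became 0 with only the 2 conditions compared and with the RESUB term, 3 with no minimum fold change and 0 to 2 with a library left out (2 without Effector replicate 1, 0 without T_Dysf replicate 1). In Acute-7d against Effector it was 2, and became 1 with equal 75th percentiles, 0 with only the 2 conditions compared, 1 with the RESUB term, 6 with no minimum fold change and 1 to 3 with a library left out (3 without Effector replicate 1, 1 without any other). In Acute-2d against Effector it was 3, and became 1 with equal 75th percentiles, 0 with only the 2 conditions compared, 0 with the RESUB term, 6 with no minimum fold change and 0 to 3 with a library left out (0 without either Acute-2d library, 1 without either T_Dysf library). In Acute-7d against Acute-2d it was 0 throughout. The share of all genes called moved too. In T_Dysf against Acute-7d it was 5.57%, and 13.1% with an unadjusted p, 9.21% with no minimum fold change and 1.74% to 6.31% with a library left out. In T_Dysf against Acute-2d it was 7.35%, and 14.5%, 11.9% and 2.70% to 7.68% in that order, and 14.1% and 15.1% with the filters on mean and maximum. In T_Dysf against Effector it was 9.22%, and 15.6% with no minimum fold change, 2.41% to 10.2% with a library left out, 1.91% with only the 2 conditions and 1.59% with the RESUB term. In Acute-7d against Effector it was 8.06%, and 14.9%, 1.56% to 8.87%, 0.638% and 3.32% in that order, and in Acute-2d against Effector 8.78%, and 15.7%, 2.28% to 9.72%, 0.967% and 1.44%. Equal 75th percentiles moved the median LFC of all genes by 0.11 in Acute-2d against Effector, and the share of calls that were higher from 51.0% to 64.2% there and from 48.1% to 59.3% in Acute-7d against Effector.

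With the replicate number as a block the count was 1 in Acute-7d against Effector (5.89% of all genes) and 2 in Acute-2d against Effector (6.36%), and 8 of the 19 changes were lost. The replicate numbers were not shown to pair the samples, so these losses are not read as weaker effects.

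Changes near 0 that had not passed turned their sign in 26 instances, and ranges here are over the 8 fits that leave out a library. In T_Dysf against Effector, *Bcl2* ran from -0.14 to 0.070, *Bbc3* from -1.05 to 0.075, and *Bcl2l11* from -0.19 to 0.20 and was -0.010 with equal totals. In T_Dysf against Acute-7d, *Mcl1* ran from -0.039 to 0.0016, and *Bax* from -0.062 to 0.090 and was -0.089 with equal 75th percentiles and -0.030 with the RESUB term. In Acute-2d against Effector, *Bax* ran from -0.020 to 0.17 and was -0.013 with the RESUB term, and *Pmaip1* ran from -0.51 to 0.41 and was 0.098 with equal 75th percentiles and 0.106 with the RESUB term. In Acute-7d against Acute-2d, *Bcl2a1b* ran from -0.14 to 0.17 and was -0.030 as the sum of all copies, *Bak1* ran from -0.34 to 0.017 and was 0.017 with the RESUB term, and *Bbc3* ran from -0.62 to 0.082 and was 0.082 with that term. There *Bcl2l11* ran from -0.059 to 0.16 and *Pmaip1* from -0.26 to 0.66.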
